A study of Mus musculus with 9 samples.

Results

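Chemokine ligands are small secreted proteins that direct the movement of leukocytes and other cells. The genes were taken as every row of the count table whose identifier maps to a mouse symbol that starts with Ccl, Cxcl, Xcl or Cx3cl followed by a digit. That gave 38 ligand genes of 49585 genes, after 2 pseudogenes with such a symbol had been left out. Their RNA was measured in 9 spontaneous breast tumours of mice, of which 6 were labelled AAV-delta-mut-p53 and 3 AAV-Control. Single tumours are called delta 1 to delta 6 for AAV-delta-mut-p53 and Control 1 to Control 3 for AAV-Control. Both groups shared the genotype: K14-Cre, with Trp53wm-R172H/fl and with Rosa26LSL CAS9-P2A-EGFP/+. K14-Cre places the recombinase in keratin 14-positive epithelium, and the Rosa26 allele carries a Cas9 gene that Cre switches on. Every tumour received adeno-associated virus (AAV), a gene delivery vector, on days 0, 3 and 8, and was collected when the animal met the criteria for euthanasia. In the AAV-delta-mut-p53 group the mutant Trp53 gene was the target of deletion. The sources used here do not give the ages, the content of the control vector or the interval to collection. The question addressed here is how the ligand RNAs differed between the AAV-delta-mut-p53 and the AAV-Control tumours.

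Chemokines bind receptors with a matching subfamily name on the surface of migrating cells. Inflammatory ligands are made on demand, many of them after signals through NF-kB or interferon, and homeostatic ligands are made steadily by stroma and by lymphoid tissue. In mammary tumours they are known to draw neutrophils, monocytes, lymphocytes and eosinophils. The RNA came from whole tumours, so fewer cells of a type and less RNA per cell cannot be told apart.

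Of the 38 ligand genes, 12 lie on chromosome 11 and 11 on chromosome 5. The following RefSeq sequences (GRCm38.p6) are the 250 bases before the start of 5 ligands on chromosome 5 and run 5′ to 3′ along each gene's own strand. They are shown because Cxcl13, Cxcl10 and Cxcl2 had the smallest p among the higher ligands, and because Cxcl1, Cxcl2 and Cxcl3 were high in the same tumours. Capitals mark matches to the NF-kB consensus, to the interferon-stimulated response element (ISRE, GAAA and GAAA with any 2 bases between) or to the gamma-activated sequence (GAS, TTC and GAA with any 3 bases between), searched on both strands, with overlapping matches joined.
Cxcl1, chr5:90890995-90891244, plus strand: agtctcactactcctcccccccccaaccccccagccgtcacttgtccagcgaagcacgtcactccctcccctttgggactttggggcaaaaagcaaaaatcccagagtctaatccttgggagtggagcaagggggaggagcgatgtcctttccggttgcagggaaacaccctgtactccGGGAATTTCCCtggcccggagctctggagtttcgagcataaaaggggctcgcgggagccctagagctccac
Cxcl2, chr5:90903649-90903898, plus strand: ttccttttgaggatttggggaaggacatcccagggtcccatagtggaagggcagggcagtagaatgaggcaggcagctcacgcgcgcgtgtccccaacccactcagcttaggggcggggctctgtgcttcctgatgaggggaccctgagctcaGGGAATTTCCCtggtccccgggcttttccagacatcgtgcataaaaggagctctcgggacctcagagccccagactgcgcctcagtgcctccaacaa
Cxcl3, chr5:90785851-90786100, plus strand: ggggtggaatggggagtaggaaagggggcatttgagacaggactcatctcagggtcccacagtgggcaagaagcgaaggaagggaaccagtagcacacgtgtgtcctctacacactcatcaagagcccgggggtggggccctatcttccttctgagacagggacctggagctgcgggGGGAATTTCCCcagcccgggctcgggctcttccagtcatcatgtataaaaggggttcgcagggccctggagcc
Cxcl10, chr5:92348890-92349139, minus strand: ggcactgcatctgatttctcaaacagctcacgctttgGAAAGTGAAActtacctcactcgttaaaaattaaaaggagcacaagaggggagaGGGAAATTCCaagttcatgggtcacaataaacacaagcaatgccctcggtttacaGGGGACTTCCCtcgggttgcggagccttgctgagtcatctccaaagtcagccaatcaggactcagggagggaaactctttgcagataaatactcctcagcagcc
Cxcl13, chr5:95956689-95956938, plus strand: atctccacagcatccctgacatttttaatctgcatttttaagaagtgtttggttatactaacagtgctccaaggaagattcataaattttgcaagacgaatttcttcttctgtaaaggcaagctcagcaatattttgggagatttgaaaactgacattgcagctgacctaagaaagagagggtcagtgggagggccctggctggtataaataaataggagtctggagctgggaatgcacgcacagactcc

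Cxcl1, Cxcl2 and Cxcl3 each carried the same run, GGGAATTTCCC, with its first base 71, 97 and 73 bases before the start. The window of Cxcl10 held an ISRE match, GAAAGTGAAA, and a pair of NF-kB matches, GGGAAATTCC and GGGGACTTCCC. None of these 3 motifs was found in the window of Cxcl13. Of the 38 ligands, 27 had a promoter sequence. Among those 27, the NF-kB consensus was found in 7 (25.9%), the ISRE in 3 (11.1%) and the GAS in 2 (7.41%). Over 27025 mouse promoters of the same length the shares were 7.01%, 3.04% and 7.18%. A match describes the letters of the window, and binding was not measured.

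The tumours differed in make-up before any ligand was considered. Total counts ran from 18581545 to 24567423 in AAV-delta-mut-p53 tumours and from 26280250 to 30953250 in AAV-Control tumours. Values are CPM, counts scaled to a common library total, with TMM factors that adjust for differences in library make-up. Tumour delta 2 stood apart, with 35103 CPM summed over 5 muscle genes, 299 CPM over 6 B cell genes and 166 CPM over 4 luminal epithelial genes. In the other 8 tumours the muscle sum lay between 21.6 and 300.4 CPM, and their luminal sums were all at least 783 CPM. Trp53, the targeted gene, was measured at 13.1, 22.0, 39.0, 37.8, 40.9 and 41.5 CPM in delta 1 to 6, against 48.6, 39.3 and 42.3 CPM in Control 1 to 3. Counts per gene do not separate an edited transcript from an unedited one. Tumours delta 4 and 5 share a number in their titles, and whether they came from 1 animal is not stated.

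Of the 38 ligands, 31 reached at least 1 CPM in at least 1 tumour and 16 did so in all 9. The 7 that stayed below 1 CPM in every tumour were Ccl1, Ccl17, Ccl19, Ccl21b, Ccl26, Ccl27b and Xcl1. Ccl21b and Ccl27b had 0 counts in every tumour, where a count of 0 allows up to 3 counts, or 0.0969 to 0.161 CPM by library size. Ccl17 and Ccl22 are ligands of CCR4, and Ccl19 and the Ccl21 genes are ligands of CCR7 that guide cells to lymph nodes. Ccl21a and Ccl22 reached 1 CPM in delta 2 alone, at 1.29 and 1.02 CPM. The Ccl19, Ccl21 and Ccl27 genes have near-identical copies in the mouse genome, between which counting can split or lose reads, so their levels are uncertain. A total of 29 ligands had enough counts to be tested, and the 9 that were not tested were the 7 just named with Ccl21a and Ccl22.

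**Figure D1:**
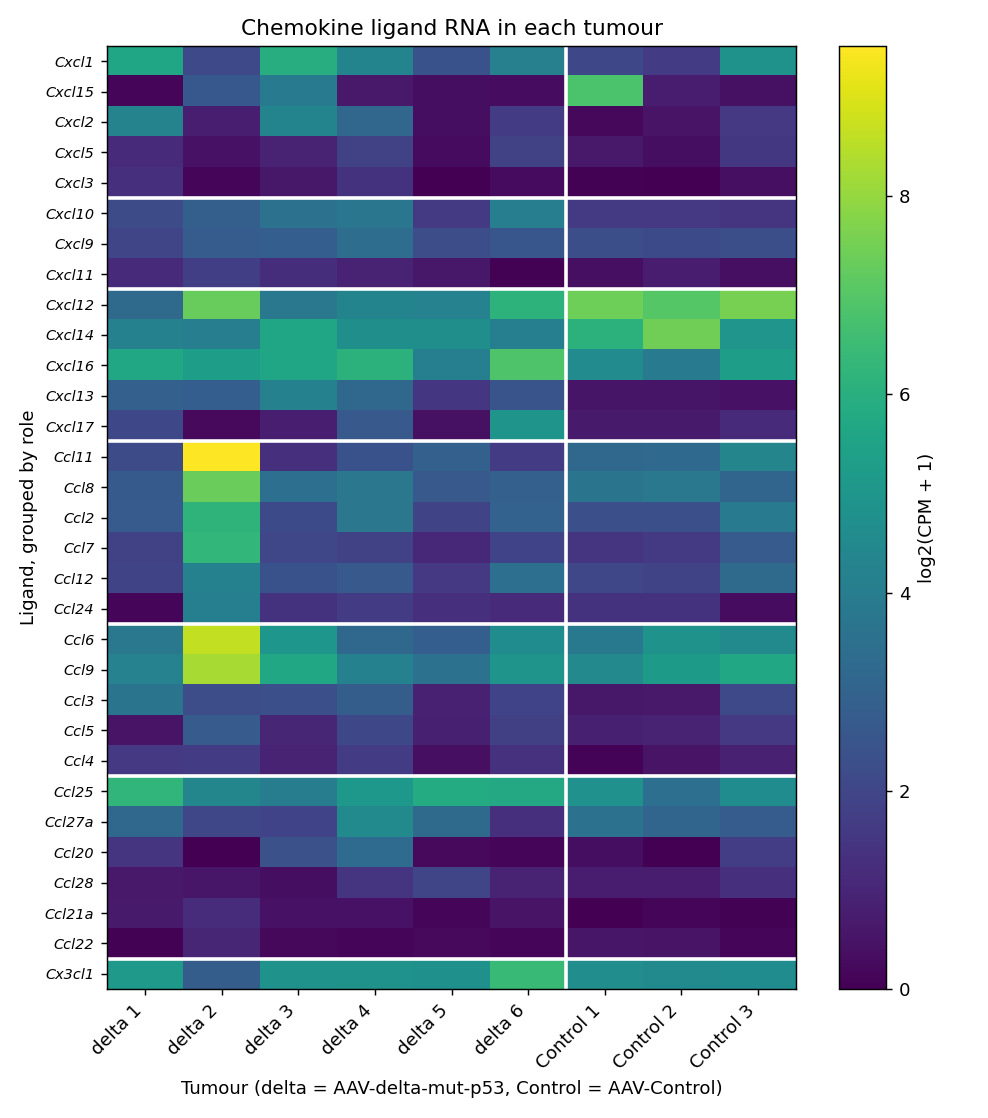
RNA of the 31 ligands that reached 1 CPM in at least 1 tumour (rows, grouped by role) in each tumour (columns, where delta stands for AAV-delta-mut-p53 and Control for AAV-Control), coloured by log2(CPM + 1). The column of delta 2 holds the brightest cells, led by Ccl11 at 732 CPM, Ccl6 at 398 CPM and Ccl9 at 310 CPM.

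Levels can be compared between genes only per length, and CPM per kilobase of annotated exon was used for that. By the median level over the 9 tumours on that scale, the order was led by Ccl8 at 19.6, Cxcl14 at 14.2, Cxcl16 at 13.1 and Ccl6 at 12.5 CPM per kilobase. Ccl9 at 9.62, Cxcl1 at 8.87, Cxcl12 at 8.64 and Ccl12 at 7.91 CPM per kilobase came next. The ranges of these 8 ligands over tumours overlapped, so their order is not set apart from their spread. Ccl8, for example, ran from 10.5 to 314 CPM per kilobase and Cxcl14 from 8.62 to 94.4 CPM per kilobase. At the other end, the median of Ccl20 was 0.198 CPM per kilobase, although it reached 6.32 CPM per kilobase in delta 4.

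Most tested ligands had a higher mean in AAV-delta-mut-p53 tumours, and 1 tumour carried a large part of that. Of the 29 tested, 25 had a positive and 4 a negative log2 fold change, AAV-delta-mut-p53 over AAV-Control, where 55.6% of all 19606 tested genes were positive. The median log2 fold change was 1.25 over the ligands and 0.09 over all tested genes. Without delta 2 the ligand median was 0.54, with 20 positive and 9 negative, and 7 ligands had turned direction. Summed over all ligands, the level was 348, 2069, 402, 352, 207 and 512 CPM in delta 1 to 6, against 517, 462 and 492 CPM in Control 1 to 3. The sum of delta 2 was the highest, and those of delta 1, 3, 4 and 5 lay below every AAV-Control sum.

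No ligand passed a false discovery rate (FDR) of 0.05 in edgeR's quasi-likelihood test, where 0 of 19606 genes did (0%) and the smallest FDR was 0.677. At an unadjusted p under 0.05 there were 5 ligands, Cxcl13, Cxcl10 and Cxcl2 with higher and Cxcl14 and Cxcl12 with lower means in AAV-delta-mut-p53 tumours, beside 1387 of all tested genes (7.07%). That is 3 of 29 ligands higher, beside 3.82% of genes, and 2 of 29 lower, beside 3.26%. DESeq2 called 105 genes at an FDR of 0.05 (0.536%), among them 1 ligand, Cxcl13, and it had 9 ligands at an unadjusted p under 0.05, beside 9.8% of genes. That is 9 of the 23 ligands to which DESeq2 gave a p, beside 10.2% of the genes with one. It gave none to Cxcl15, Ccl24, Ccl7, Ccl11, Ccl8 and Ccl6. Limma voom called 0 genes and had 7 of 29 ligands and 10.4% of genes at an unadjusted p under 0.05. Cxcl13 was the 1 ligand whose groups did not overlap, a pattern seen in 3.06% of tested genes (1.47% higher and 1.59% lower). Without delta 2, 8 of 29 ligands had an unadjusted p under 0.05 in edgeR, beside 8.79% of genes. The groups of 4 ligands then did not overlap, Cxcl13, Cxcl12, Ccl11 and Cx3cl1, beside 5.29% of genes.

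**Figure D2:**
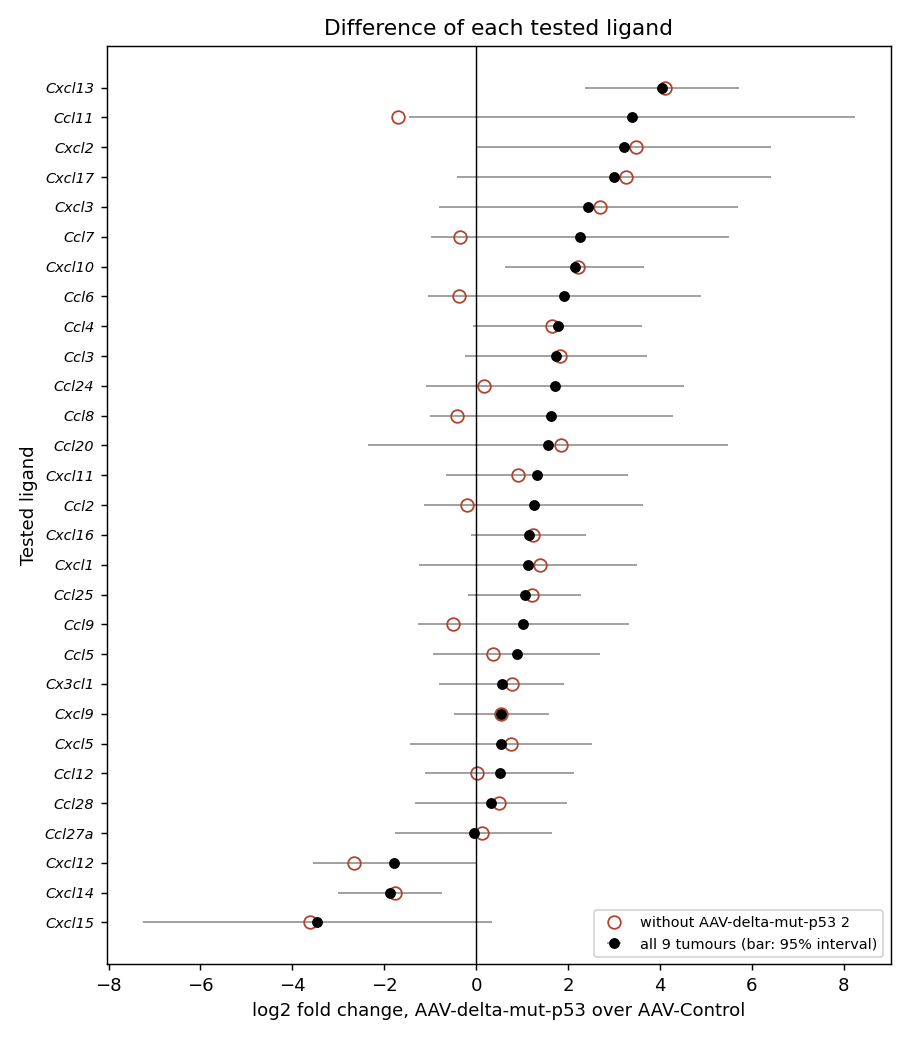
Log2 fold change (AAV-delta-mut-p53 over AAV-Control) of the 29 tested ligands from edgeR, with all 9 tumours (filled points, bars are 95% confidence intervals) and without delta 2 (open circles). Open circles of Ccl11, Ccl7, Ccl6, Ccl8, Ccl9 and Ccl2 lie left of 0 while their filled points lie right of it, and both points of Cxcl13 lie near 4.

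Cxcl13, the ligand of CXCR5 that draws B cells into follicles, was higher in each AAV-delta-mut-p53 tumour than in any AAV-Control tumour. It measured 1.86 CPM at the lowest, 6.38 CPM at the median and 17.0 CPM at the highest of the 6 AAV-delta-mut-p53 tumours, against 0.457, 0.467 and 0.396 CPM in Control 1 to 3. Tumour delta 3 was the highest and delta 5 the lowest of its group, and the lowest still lay above every AAV-Control tumour. Its log2 fold change was 4.05 (SE 0.76, 95% confidence interval 2.37 to 5.73), with an unadjusted p of 0.000276 and an FDR of 0.677 in edgeR's quasi-likelihood test. The exact 2-sided permutation test of log2(CPM + 1) gave p = 0.0119, the smallest that 84 assignments of tumours can give. DESeq2 gave an adjusted p of 4.84e-06, and over all alternatives tried the adjusted p ran up to 0.907. The gene (ENSMUSG00000023078.6, on chromosome 5) spans 95956951 to 95961068 on GRCm38, and the difference without delta 2 was 4.10 on the log2 scale.

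RNA of the B cell genes examined was not spread over the tumours in the way of Cxcl13. Cxcr5, the receptor of Cxcl13, had 34.3 CPM in delta 2 and at most 1.45 CPM in the other AAV-delta-mut-p53 tumours, against 0.949, 0.233 and 0.277 CPM in Control 1 to 3. The 6 B cell genes summed to between 1.48 and 299 CPM in AAV-delta-mut-p53 tumours, with a median of 12.0 CPM, against 5.31 to 15.7 CPM in AAV-Control tumours. Of them, 5 were tested and all 5 had a positive log2 fold change, beside 55.6% of all tested genes, and none was at 0 in every tumour. The 4 plasma cell genes summed to 236 to 1361 CPM in AAV-delta-mut-p53 tumours, lowest in delta 2, against 218 to 252 CPM in AAV-Control tumours. The mean log2(CPM + 1) of these genes (Jchain, Mzb1, Sdc1 and Xbp1) was 4.45 to 5.42 against 4.06 to 4.17, without overlap. On that scale delta 2, at 5.22, was not the lowest and lay above delta 1 at 4.45 and delta 5 at 4.49. All 4 genes had a positive log2 fold change, and 2 were higher at an unadjusted p under 0.05 in edgeR, beside 3.82% of genes. Cxcl13 itself was 6.14 CPM in delta 2, below the level in delta 1, 3 and 4. The 4 genes of follicular dendritic and lymphoid stroma summed to 19.0 to 194 CPM in AAV-delta-mut-p53 tumours, against 194 to 337 CPM in AAV-Control tumours, and none of these was at 0 in every tumour. Most of that sum was Pdpn, and the part of B cells, plasma cells or stroma in the Cxcl13 difference was not tested.

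**Figure D3:**
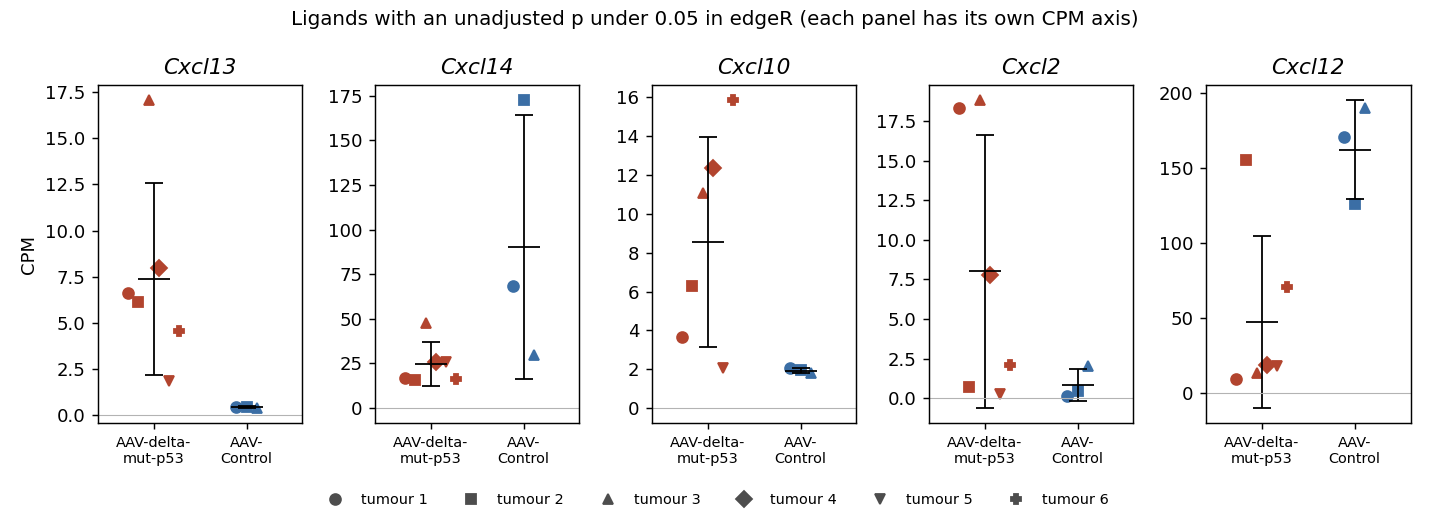
CPM of the 5 ligands with an unadjusted p under 0.05 in edgeR, with 1 symbol per tumour, for AAV-delta-mut-p53 (left, n = 6) and AAV-Control (right, n = 3), and bars for the mean and SD. The groups of Cxcl13 do not overlap (1.86 to 17.0 CPM against 0.396 to 0.467 CPM), while in each of the other 4 panels at least 1 AAV-delta-mut-p53 tumour lies within the AAV-Control range.

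Cxcl9, Cxcl10 and Cxcl11 are the ligands of CXCR3, the receptor of activated T and NK cells, and all 3 are induced by interferon. Cxcl10 measured 2.04 CPM at the lowest, 8.69 CPM at the median and 15.9 CPM at the highest of the AAV-delta-mut-p53 tumours, against 2.04, 1.97 and 1.78 CPM in Control 1 to 3. Tumours delta 2, 3, 4 and 6 held 6.28, 11.1, 12.4 and 15.9 CPM, delta 1 held 3.64 CPM, and delta 5 lay level with the highest AAV-Control tumour. The log2 fold change was 2.14 (SE 0.69), with an unadjusted p of 0.0101 in edgeR's quasi-likelihood test and p = 0.0595 in the exact permutation test. Art3, on the opposite strand, covers 5.91% of the exon length of Cxcl10, and the sources used here do not say whether counting used the strand.

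Cxcl9 was on the same side in the same 4 tumours, with a smaller difference. It measured 2.97, 5.32 and 9.54 CPM at the lowest, the median and the highest of the AAV-delta-mut-p53 tumours, against 3.94, 3.44 and 3.92 CPM in Control 1 to 3. Tumours delta 2, 3, 4 and 6 lay above every AAV-Control tumour, delta 5 lay among them, and delta 1 lay below them. For Cxcl9 the log2 fold change was 0.55 (SE 0.47), with an unadjusted p of 0.265 in edgeR's test. Cxcl11 was near 1 CPM, at 1.17, 2.40, 1.37, 0.893, 0.531 and 0.0408 CPM in delta 1 to 6, against 0.316, 0.634 and 0.317 CPM in Control 1 to 3. Tumour delta 6, the highest for Cxcl10, was the lowest of all 9 for Cxcl11. The annotation calls Cxcl11 a polymorphic pseudogene, and a processed pseudogene on the opposite strand covers 41.7% of its exon length.

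The tumours high in Cxcl10 were also those high in other interferon-induced RNA. The 17 interferon-stimulated genes listed summed to 189, 1187, 1748, 1524, 192 and 1551 CPM in delta 1 to 6, against 366, 215 and 231 CPM in Control 1 to 3. Tumours delta 1 and 5 lay below every AAV-Control tumour, and the other 4 lay above. All 17 had a positive log2 fold change, as did 55.6% of all tested genes, and none was at 0 in every tumour. Of the 17, 12 were higher at an unadjusted p under 0.05 in edgeR, beside 3.82% of genes. Of 15 genes of interferon signalling, 13 were tested, 11 with a positive log2 fold change. Stat2, Irf7, Irf9 and the kinase gene Tyk2 had higher means, each with an unadjusted p under 0.05. Ifng, the gene of interferon gamma, was at most 0.323 CPM in AAV-delta-mut-p53 tumours, against at most 0.141 CPM in AAV-Control tumours. Cxcr3 was at most 2.59 CPM in AAV-delta-mut-p53 tumours, in delta 2, against at most 0.967 CPM in AAV-Control tumours. The part of these genes in the Cxcl10 difference was not tested.

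Cxcl1, Cxcl2, Cxcl3 and Cxcl5 carry the ELR motif and draw neutrophils through CXCR2, and Cxcl15 carries the ELR motif too. Cxcl1 measured 3.33, 17.7 and 60.1 CPM at the lowest, the median and the highest of the AAV-delta-mut-p53 tumours, against 3.13, 2.23 and 28.8 CPM in Control 1 to 3. Tumours delta 1 and 3, at 47.0 and 60.1 CPM, lay above every AAV-Control tumour, and the groups overlapped, with Control 3 at 28.8 CPM. The log2 fold change was 1.13 (SE 1.07, unadjusted p = 0.314 in edgeR's test), and without Control 3 it was 3.21 (unadjusted p = 0.0268). It was 0.66 without delta 3, 0.68 without Control 1 and 0.67 without Control 2, each with an unadjusted p above 0.5 in edgeR. Without Control 3, 11 of 32 tested ligands had an unadjusted p under 0.05 in edgeR, beside 5.11% of genes, and 4 of 29 had groups that did not overlap, beside 7.36%.

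Cxcl2 measured 0.266, 4.94 and 18.8 CPM at the lowest, the median and the highest of the AAV-delta-mut-p53 tumours, against 0.141, 0.434 and 2.02 CPM in Control 1 to 3. Tumours delta 1, 3 and 4 held 18.3, 18.8 and 7.76 CPM and delta 6 lay just above Control 3, while delta 2 and 5 lay within the AAV-Control range. The log2 fold change was 3.21 (SE 1.45, unadjusted p = 0.0496 in edgeR's test), and the exact permutation test gave p = 0.202. With 1 tumour left out at a time it ran from 2.70, without Control 1, to 4.77, without Control 3. The unadjusted p in edgeR then exceeded 0.05 in 5 of 9 cases, at 0.0815 without delta 1, 0.0843 without delta 3, 0.064 without delta 4, 0.133 without Control 1 and 0.132 without Control 2.

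For Cxcl1, Cxcl2, Cxcl3 and Cxcl5 the 5 tumours with the highest levels were the same, namely delta 1, 3, 4 and 6 and Control 3. The same 5 were also the highest for Cxcr2 and for Il1b and Tnf, cytokine genes that NF-kB induces. Il1a shared these 5 too, but some other genes of NF-kB signalling and feedback did not. The 5 highest tumours of Il6, Nfkbia and Nfkbiz included delta 2, at 0.832, 54.4 and 48.2 CPM. They left out delta 3 for Il6, and Control 3 for Nfkbia and Nfkbiz. Cxcl3 stayed low, at 0 to 1.62 CPM in AAV-delta-mut-p53 tumours, against 0 to 0.317 CPM in AAV-Control tumours, and Cxcl5 reached 2.68 CPM in delta 4. Cxcl15, known in the mouse as a chemokine of lung epithelium, did not share that order. It measured 14.4 CPM in delta 3 and 0.135 to 5.22 CPM in the other AAV-delta-mut-p53 tumours, against 113, 0.70 and 0.357 CPM in Control 1 to 3. On the log2 scale the difference was -3.46 (SE 1.72), or 2.69 without Control 1.

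**Figure D4:**
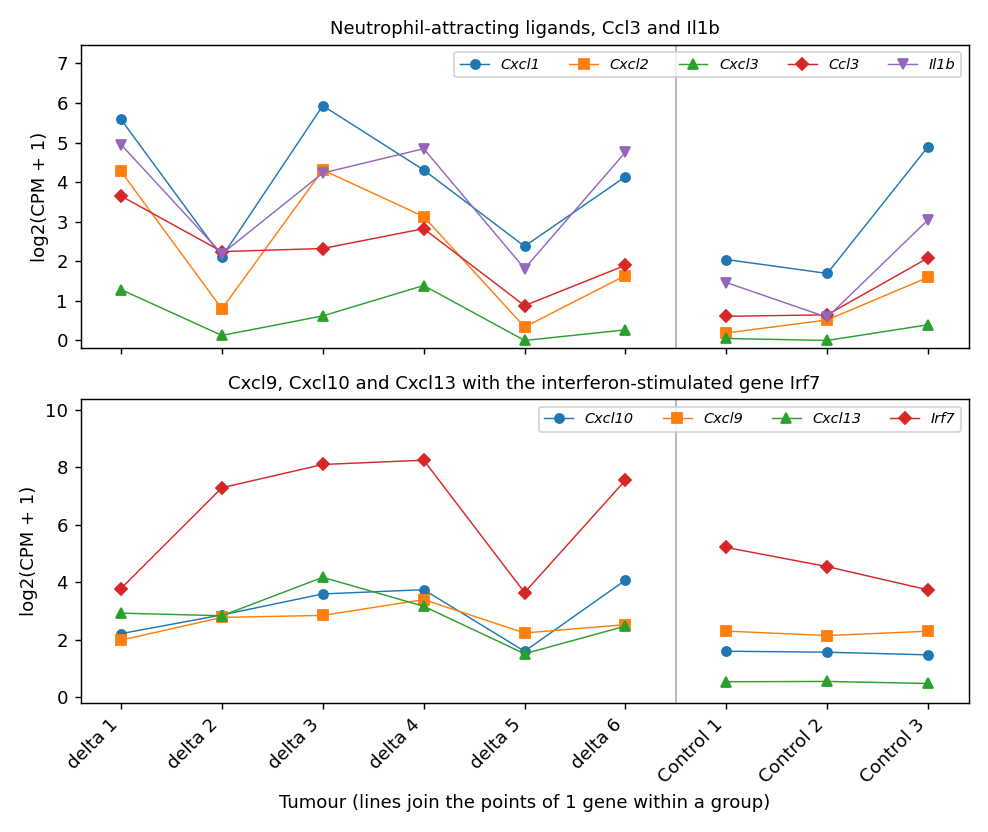
Log2(CPM + 1) in each tumour (delta stands for AAV-delta-mut-p53, Control for AAV-Control) of the neutrophil-attracting ligands with Ccl3 and the cytokine gene Il1b (upper panel), and of Cxcl9, Cxcl10 and Cxcl13 with the interferon-stimulated gene Irf7 (lower panel). In the upper panel Cxcl1 and Cxcl2 are low in delta 2 and delta 5. Control 3 is high for Cxcl1 and is the highest AAV-Control tumour for Cxcl2. In the lower panel Irf7 is low in delta 1 and delta 5.

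Of 15 genes of NF-kB signalling and feedback, 13 were tested and all 13 had a positive log2 fold change, beside 55.6% of all tested genes. The 4 with an unadjusted p under 0.05 in edgeR were Rel, Nfkbia, Nfkbiz and Il1b, beside 3.82% of genes that were higher at that p. Il1b measured 29.9, 3.56, 17.8, 27.7, 2.52 and 26.1 CPM in delta 1 to 6, against 1.76, 0.500 and 7.29 CPM in Control 1 to 3. The 8 neutrophil genes summed to 40.6 to 194 CPM in AAV-delta-mut-p53 tumours, against 5.30 to 59.3 CPM in AAV-Control tumours, with 7 tested, all 7 positive and none at 0 in every tumour. The highest sums of each group were in delta 3 and Control 3, which also held the most Cxcl1 of their groups. The part of neutrophils in the levels of these ligands was not tested.

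Cxcl12, the homeostatic ligand of CXCR4 made by stroma, was lower in most AAV-delta-mut-p53 tumours. It measured 8.86, 18.2 and 155 CPM at the lowest, the median and the highest of the AAV-delta-mut-p53 tumours, against 171, 126 and 190 CPM in Control 1 to 3. Tumour delta 2, at 155 CPM, lay within the AAV-Control range, delta 6 held 70.7 CPM, and the other 4 held at most 18.7 CPM. This was a log2 fold change of -1.78 (SE 0.80), with an unadjusted p of 0.0499 in edgeR's test and p = 0.0595 in the exact permutation test. Without delta 2 it was -2.65, the groups did not overlap and the unadjusted p was 0.00126 in edgeR's test. With any other tumour left out the value ran from -1.93 to -1.54 and the unadjusted p from 0.0532 to 0.111.

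Cxcr4, the signalling receptor of Cxcl12, measured 114, 53.1, 26.7, 54.2, 284 and 88.1 CPM in delta 1 to 6, against 73.6, 176 and 69.8 CPM in Control 1 to 3. Its groups overlapped widely, with a log2 fold change of -0.04 (SE 0.66). Ackr3, the scavenging receptor of Cxcl12, was 182 CPM in delta 2 and 2.10 to 22.4 CPM in the other AAV-delta-mut-p53 tumours, against 8.07 to 9.87 CPM in AAV-Control tumours. Stromal and vascular markers differed between tumours too. Of 4 endothelial genes, all tested, 3 had a negative log2 fold change, where 55.6% of all tested genes had a positive one. Pecam1 (-0.92) and Cdh5 (-1.31) fell under an unadjusted p of 0.05 in edgeR, beside 3.26% of genes lower at that p. The endothelial sum was 92.5 to 282 CPM in AAV-delta-mut-p53 tumours, against 197 to 413 CPM in AAV-Control tumours, and the fibroblast sum over 5 genes was 448 to 7731 CPM, against 408 to 3659 CPM, with no member of either list at 0 in every tumour. The part of stroma or endothelium in the Cxcl12 difference was not tested.

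Cxcl14, a ligand of epithelium and stroma, had a lower mean in AAV-delta-mut-p53 tumours. It measured 15.8, 21.2 and 47.5 CPM at the lowest, the median and the highest of the AAV-delta-mut-p53 tumours, against 68.4, 172 and 29.9 CPM in Control 1 to 3. Tumour delta 3, at 47.5 CPM, lay above Control 3, and the other 5 lay below every AAV-Control tumour. This was a log2 fold change of -1.87 (SE 0.51), with an unadjusted p of 0.00415 in edgeR's test and p = 0.0238 in the exact permutation test, which 5.47% of all tested genes passed at 0.05. Without Control 2 the value was -0.99.

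Cxcl16 and Cx3cl1 are the ligands made as membrane-bound proteins, which the proteases ADAM10 and ADAM17 release. Cxcl16 measured 16.1, 48.9 and 117 CPM at the lowest, the median and the highest of the AAV-delta-mut-p53 tumours, against 22.9, 14.4 and 39.4 CPM in Control 1 to 3. All but delta 5 lay above every AAV-Control tumour, delta 2 by a margin of less than 1 CPM, and the log2 fold change was 1.14 (SE 0.56, unadjusted p = 0.0687 in edgeR's test). Zmynd15, on the opposite strand, covers 18.3% of the exon length of Cxcl16. Cxcr6, its receptor, was at most 5.87 CPM in AAV-delta-mut-p53 tumours, against at most 2.30 CPM in AAV-Control tumours.

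Cx3cl1, also called fractalkine, was nearly equal in the 3 AAV-Control tumours. It measured 5.91, 28.2 and 85.3 CPM at the lowest, the median and the highest of the AAV-delta-mut-p53 tumours, against 24.2, 22.7 and 23.8 CPM in Control 1 to 3. Tumour delta 2, which held little luminal epithelial RNA, was the lowest, and the other 5 lay above every AAV-Control tumour. For Cx3cl1 the log2 fold change was 0.56 (SE 0.61), or 0.78 without delta 2 (unadjusted p = 0.100 in edgeR's test) and 0.057 without delta 6 (unadjusted p = 0.91). Its receptor gene Cx3cr1, a gene of macrophages and monocytes, was also lowest in delta 2, at 5.04 CPM, and highest in delta 6, at 80.6 CPM. Of 7 genes that process or release chemokines, all tested, 6 had a positive and 1 a negative log2 fold change, and none had an unadjusted p under 0.05. Adam10 had a log2 fold change of 0.18 and Adam17 one of 0.71.

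**Figure D5:**
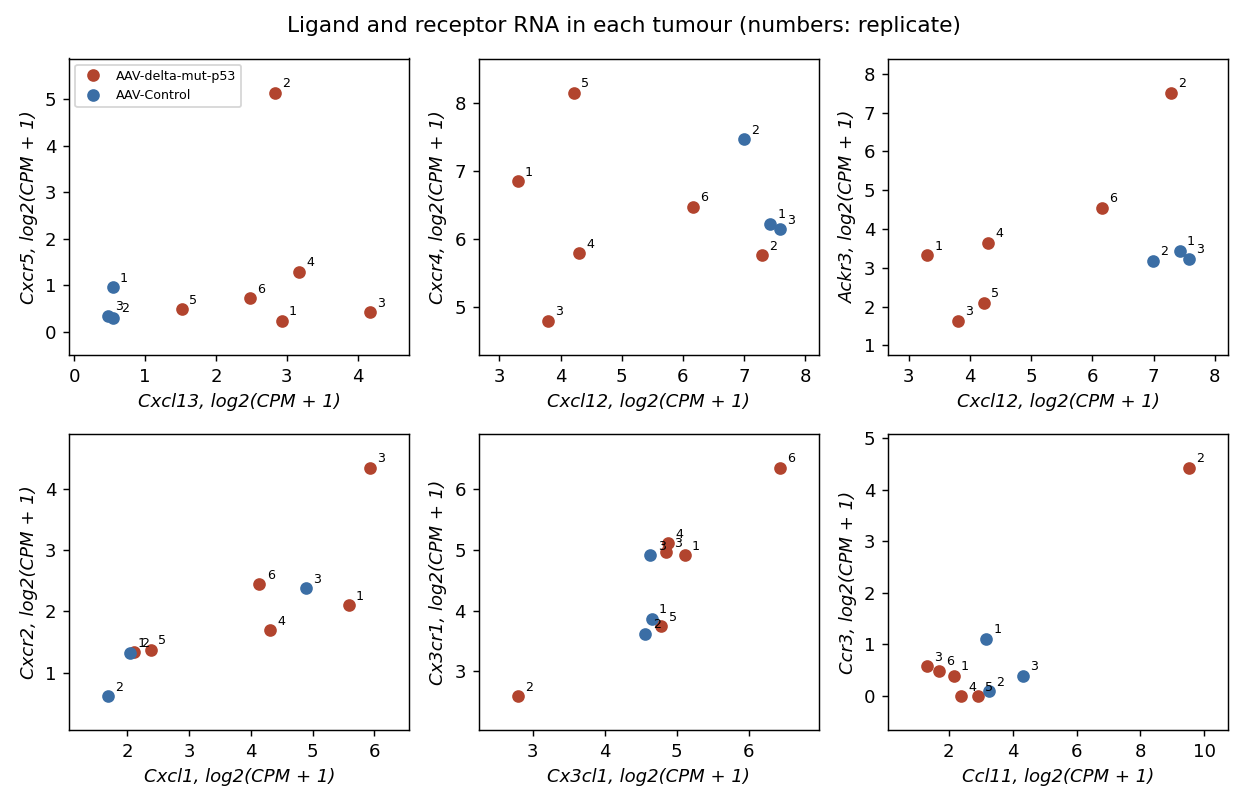
Log2(CPM + 1) of 6 ligand and receptor pairs, with 1 point per tumour numbered by replicate within AAV-delta-mut-p53 (red) and AAV-Control (blue). Tumour delta 2 holds the highest Cxcr5, Ackr3, Ccl11 and Ccr3, while Cxcl13 is highest in delta 3.

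Ccl2, Ccl7, Ccl8 and Ccl12 draw monocytes through CCR2 and related receptors, and Ccl11 and Ccl24 are eotaxins that draw eosinophils through CCR3. Ccl2, Ccl7, Ccl11, Ccl12 and Ccl8 are neighbours on chromosome 11, between 82035571 and 82116799 on GRCm38. Ccl11 measured 1.51, 3.85 and 732 CPM at the lowest, the median and the highest of the AAV-delta-mut-p53 tumours, against 8.05, 8.57 and 19.2 CPM in Control 1 to 3. Tumour delta 2 was 38.1 times the highest other tumour, and the other 5 lay below every AAV-Control tumour. With all tumours the log2 fold change was 3.39 (SE 2.20). Without delta 2 it was -1.71, with an unadjusted p of 0.00992 in edgeR's test and groups that did not overlap.

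The same tumour held the most of the neighbouring ligands. Ccl7 was 77.9 CPM and Ccl8 was 160 CPM in delta 2, which was 13.8 and 12.3 times the highest other tumour. Ccl2 was 72.4 CPM there, 5.25 times the highest other tumour. Ccl12 was 17.0 CPM there, with 1.99 to 10.3 CPM in the other AAV-delta-mut-p53 tumours, against 3.06, 2.83 and 8.71 CPM in Control 1 to 3. Outside that tumour Ccl2 ran from 2.88 to 12.5 CPM in AAV-delta-mut-p53 tumours, against 3.97 to 13.8 CPM in AAV-Control tumours, so these groups overlapped. Ccl7 ran from 1.11 to 3.03 CPM, against 1.69 to 5.66 CPM, and Ccl8 from 5.35 to 12.5 CPM, against 7.57 to 13.0 CPM. Log2 fold changes without it were -0.20 for Ccl2, -0.36 for Ccl7, -0.42 for Ccl8 and 0.03 for Ccl12, where with all tumours they were 1.25 (SE 1.08), 2.26 (SE 1.46), 1.63 (SE 1.2) and 0.51 (SE 0.73). Ccl24, on chromosome 5, followed with 16.4 CPM in delta 2, 7.76 times the highest other tumour.

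Ccl6 and Ccl9 are mouse ligands of CCR1 made by myeloid cells, and Ccl3, Ccl4 and Ccl5 are inflammatory ligands made by activated leukocytes. Ccl6 measured 6.11, 18.3 and 398 CPM at the lowest, the median and the highest of the AAV-delta-mut-p53 tumours, against 13.5, 27.5 and 22.5 CPM in Control 1 to 3. Ccl9 measured 10.7, 23.5 and 310 CPM at the same points, against 21.4, 35.0 and 50.5 CPM in Control 1 to 3. The highest tumour for both was delta 2, and without it the log2 fold changes were -0.37 for Ccl6 and -0.50 for Ccl9, where with all tumours they were 1.92 (SE 1.34) and 1.03 (SE 1.04). In these ligands the AAV-delta-mut-p53 and AAV-Control ranges overlapped with and without that tumour.

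Ccr2, Ccr3 and the sum of macrophage and monocyte genes were highest in the same tumour, and some other receptor and myeloid genes were low there. Ccr2 was 153 CPM and Ccr3 was 20.5 CPM in delta 2, against at most 25.9 CPM of Ccr2 and 1.16 CPM of Ccr3 in AAV-Control tumours. The 8 macrophage and monocyte genes summed to 228 to 1837 CPM in AAV-delta-mut-p53 tumours, highest in delta 2. In AAV-Control tumours the sum was 374 to 491 CPM. All 8 had a positive log2 fold change, beside 55.6% of all tested genes, and none was at 0 in every tumour. None of the 8 had an unadjusted p under 0.05 in edgeR. In delta 2 Cx3cr1 was the lowest of all 9 tumours. Cxcr2 (1.52 CPM) and the neutrophil genes S100a8 (2.03 CPM) and S100a9 (3.60 CPM) were the lowest of the AAV-delta-mut-p53 group there. Other genes of the neutrophil list were high in that tumour. Csf3r, at 24.2 CPM, was exceeded only in delta 3, and Retnlg, at 20.1 CPM, was the highest of all 9 tumours. Cxcr4 in delta 2, at 53.1 CPM, lay below every AAV-Control tumour. None of the 3 eosinophil genes was tested, since the filter asks for enough counts in as many tumours as the smaller group holds. Siglecf reached 5.64 CPM in delta 2 and 5.81 CPM in delta 3, against at most 0.198 CPM in AAV-Control tumours. Prg2 and Epx, which encode eosinophil granule proteins, were at most 0.462 and 0.139 CPM in AAV-delta-mut-p53 tumours. The part of muscle, fibroblasts or myeloid cells in the ligand levels of delta 2 was not tested.

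Ccl3, which activates monocytes and neutrophils, was lower in level and was not highest in that tumour. It measured 0.841, 3.87 and 11.6 CPM at the lowest, the median and the highest of the AAV-delta-mut-p53 tumours, against 0.527, 0.567 and 3.25 CPM in Control 1 to 3. Tumour delta 1 was the highest, and the groups overlapped, since Control 3 lay above delta 5 and 6. Its log2 fold change was 1.74 (SE 0.90, unadjusted p = 0.0795 in edgeR's test), or 3.12 without Control 3. Ccl4 averaged 1.54 ± 0.777 CPM over the AAV-delta-mut-p53 tumours, against 0.445 ± 0.381 CPM over the AAV-Control tumours (SD, n = 6 and 3). Ccl5, a ligand made by T and NK cells, averaged 2.26 ± 2.0 CPM over the AAV-delta-mut-p53 tumours, against 1.23 ± 0.652 CPM over the AAV-Control tumours (SD, n = 6 and 3). It was highest in delta 2, at 5.73 CPM, where the NK cell list was also highest.

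Ccl20, Ccl25, Ccl27a and Ccl28 are ligands of epithelial barriers, and Cxcl17 is made at mucosal surfaces. Ccl25, the ligand of CCR9 known from thymus and gut, measured 15.6, 42.9 and 75.8 CPM at the lowest, the median and the highest of the AAV-delta-mut-p53 tumours, against 27.1, 10.1 and 23.8 CPM in Control 1 to 3. Tumours delta 1, 4, 5 and 6 lay above every AAV-Control tumour and delta 2 and 3 lay among them. For Ccl25 the log2 fold change was 1.06 (SE 0.55, unadjusted p = 0.084 in edgeR's test), or 1.21 (unadjusted p = 0.0434) without delta 2. It was 0.74 without Control 2 and 0.82 without delta 1, with unadjusted p of 0.255 and 0.154 in edgeR. Elavl1, on the opposite strand, covers 2.74% of the exon length of Ccl25. Ccr9, its receptor, was at most 4.90 CPM in AAV-delta-mut-p53 tumours, against at most 1.03 CPM in AAV-Control tumours.

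Ccl27a, a ligand of CCR10 known from skin keratinocytes, averaged 7.83 ± 7.88 CPM over the AAV-delta-mut-p53 tumours, against 8.09 ± 2.57 CPM over the AAV-Control tumours (SD, n = 6 and 3). Tumour delta 4 held 22.7 CPM and delta 6 held 1.43 CPM, so the AAV-delta-mut-p53 tumours lay on both sides of the AAV-Control range. Between the groups the log2 difference was -0.05 (95% confidence interval -1.76 to 1.66). Cxcl17 reached 29.8 CPM in delta 6 and ran from 0.185 to 5.36 CPM in the other AAV-delta-mut-p53 tumours, against 0.597, 0.60 and 1.27 CPM in Control 1 to 3. On the log2 scale the difference was 3.00 (SE 1.55, unadjusted p = 0.0793 in edgeR's test), or 1.25 without delta 6. Ccl20, the ligand of CCR6, was 8.99 CPM in delta 4 and 0 in delta 2, and averaged 2.53 ± 3.53 CPM over the AAV-delta-mut-p53 tumours, against 0.860 ± 1.25 CPM over the AAV-Control tumours (SD, n = 6 and 3). Ccl28 averaged 1.15 ± 0.992 CPM over the AAV-delta-mut-p53 tumours, against 0.924 ± 0.504 CPM over the AAV-Control tumours (SD, n = 6 and 3).

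Of 19 chemokine receptor genes, 14 were tested, 13 with a positive and 1 with a negative log2 fold change, beside 55.6% of all tested genes positive. Ccr7, the receptor of dendritic cells and lymphocytes that migrate to lymph nodes, was the 1 receptor of 14 with an unadjusted p under 0.05 in edgeR. Over all tested genes that share was 7.07%, so 1 of 14 was near it. It measured 1.26, 2.63, 0.391, 1.0, 0.221 and 5.34 CPM in delta 1 to 6, against 0.386, 0.334 and 0.0396 CPM in Control 1 to 3, a log2 fold change of 2.80 (SE 1.12). Tumour delta 5 lay within the AAV-Control range, so the groups overlapped. Of 7 atypical receptors and binding partners, 6 were tested, 5 with a positive and 1 with a negative log2 fold change. At an unadjusted p under 0.05 in edgeR 1 was higher and 1 lower, beside 3.82% and 3.26% of all tested genes. Ccrl2, which presents chemerin, had a log2 fold change of 2.94 (SE 1.10, unadjusted p = 0.0225 in edgeR's test) and reached 86.7 CPM in delta 3. Ackr4, which scavenges Ccl19, Ccl21 and Ccl25, had one of -2.38 (SE 0.90, unadjusted p = 0.0234 in edgeR's test), with 1.02 to 20.2 CPM in AAV-delta-mut-p53 tumours, against 7.98, 52.3 and 30.9 CPM in Control 1 to 3.

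Pf4 and Ppbp are platelet chemokines whose symbols the rule does not take. Pf4 was 44.1 CPM in delta 2 and 1.71 to 3.55 CPM in the other AAV-delta-mut-p53 tumours, against 4.04 to 7.41 CPM in AAV-Control tumours. Ppbp was 0.635 to 1.19 CPM in AAV-delta-mut-p53 tumours, against 0.467 to 3.92 CPM in AAV-Control tumours.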

How the data were processed

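Total RNA of flash-frozen tumours was made into strand-specific libraries, per the labels' protocols. Raw counts of reads for 49585 genes in 9 tumours were deposited by the authors as a single table, in which 0 columns lacked a sample. The submitters' processing notes name STAR 2.6.0b, DESeq2 and GRCm38 without saying how each was used. The sources used here give neither the counting program nor its strand setting or annotation. Symbols were found for 49326 identifiers, and positions and exon lengths came from GENCODE mouse release M21, which may not be the release counted with.

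Counts were scaled by TMM. Genes kept by filterByExpr (minimum count 10) went into the quasi-likelihood test of edgeR 4.0.16 (R 4.3.3), 2-sided and without covariates, and p-values were adjusted by the Benjamini-Hochberg method over 19606 genes. SE and 95% confidence intervals come from the same fit. DESeq2 1.42.0, limma 3.58.1 voom and a permutation test, exact and 2-sided, of log2(CPM + 1) over 84 assignments served as alternatives, beside other scalings and filters, a sum of the pair of tumours that share a title number, and each tumour left out. Replicate numbers follow the order of deposit. Tumours are the replicates. No pair of libraries in a group agreed within sampling noise. Limits for 0 counts cover counting error only.

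The ligands, lists and naming rule were chosen with earlier results of these data known. Values by tumour are given for each ligand with a mean of at least 5 CPM in either group or an unadjusted p under 0.05, and for some others. Protein sequences were not used here. Values of some genes of the lists are not reported here.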

Additional observations from a re-analysis of the deposited data

Results flagged for a closer look

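Among the 20 ligands with values by tumour, 4 values stood apart from the rest of the AAV-delta-mut-p53 group, since the gap to the nearest tumour, on the log2(CPM + 1) scale relative to the whole range, passed Dixon's 95% critical value for 6 samples. All 4 were in delta 2, and chance sets apart about 1 in 20 groups. They were Ccl7 at 77.9 CPM (nearest tumour of the group 3.03 CPM), Ccl11 at 731.6 CPM (6.55 CPM), Ccl8 at 160.3 CPM (12.5 CPM) and Ccl6 at 398 CPM (30.7 CPM).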

How the results depend on the processing

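Over the 20 ligands with values by tumour and 320 alternatives, 299 kept direction and side of the FDR threshold of 0.05, 5 kept direction but had no p from DESeq2 (Cxcl15, Ccl7, Ccl11, Ccl8 and Ccl6), 15 turned direction, and 1, Cxcl13 with DESeq2, passed the threshold. Without delta 2 the log2 fold changes turned to -1.71 for Ccl11, -0.20 for Ccl2, -0.36 for Ccl7, -0.42 for Ccl8, -0.50 for Ccl9, -0.37 for Ccl6 and 0.13 for Ccl27a. With limma voom and sample quality weights they turned to -0.93 for Ccl11, -0.24 for Ccl8, -0.18 for Ccl9 and -0.078 for Ccl6. Ccl27a also turned without delta 3 (0.13) and 6 (0.17) and without Control 1 (0.22), and Cxcl15 without Control 1 (2.69). With 1 tumour left out at a time, the values ran from -0.72 to 0.22 for Ccl27a, -4.88 to 2.69 for Cxcl15, -0.20 to 2.10 for Ccl2, -0.36 to 3.00 for Ccl7, -1.71 to 3.90 for Ccl11, -0.42 to 1.88 for Ccl8, -0.50 to 1.35 for Ccl9 and -0.37 to 2.18 for Ccl6. The cause was not tested.

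DESeq2 called 105 genes at an FDR of 0.05, where edgeR called 0. Ligands with an unadjusted p under 0.05 numbered 5 of 29 in edgeR (7.07% of genes) and 9 of 23 in DESeq2 (10.2%). They numbered 7 of 29 in limma voom (10.4%) and 2 of 29 in the exact permutation test (5.47%). With the pair of tumours that share a title number summed, edgeR had 7 of 30, beside 1729 of 19831 genes. With 1 tumour left out the number ran from 3 of 28 to 11 of 32. The 3 came without delta 1 (1353 of 19412 genes) or delta 4 (1370 of 19419), and the 11 without Control 3 (5.11%). Ligands with groups that did not overlap numbered 1 with TMM (3.06% of genes), 2 with library size alone (2.99%), 3 with that pair summed (5.55%), and 1 to 4 with 1 tumour left out (3.68% to 7.69%). The median log2 fold change was 0.54 to 1.51 with 1 tumour left out and 1.12 to 1.35 under the other alternatives. No paired analysis was possible because the replicate numbers follow the order of deposit and tie no tumour to another. Ligands near 1 CPM rest on few counts, which limits their precision.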
